A study of Mus musculus with 20 samples.

Results

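Transcript levels of histone-modifying enzymes were followed through mouse preimplantation development, from the oocyte to the blastocyst. The members are the 94 probe sets, of 22690 on the array, that carry a single gene symbol of the Hdac, Sirt, Kdm, Kmt, Setd, Kat, Prmt, Ezh, Ehmt or Suv families, or the symbol Suz12, Eed or Carm1. The rule that picks them uses gene symbols only, but it was set with earlier results of these data known. The members represent 57 of the 12393 genes that the array's annotation names. A probe set is a group of short probes whose combined signal, a scaled intensity without unit, estimates the level of 1 transcript. Of the members, 80 probe sets for 54 genes passed the filter on low intensity and were tested; the 14 others never exceeded an intensity of 54.2 on any array, and Hdac9, Kmt2d and Sirt2 had no tested probe set. Affymetrix MOE430A arrays were hybridized with RNA from oocytes and from 1-cell, 2-cell, 8-cell and blastocyst embryos, 4 arrays per stage and 20 in all. Every sample was total RNA that went through 2 rounds of amplification by in vitro transcription. The labels name no strain, age, treatment or embryo number, do not say whether the oocytes were at the germinal vesicle stage or ovulated, and do not say whether the 4 arrays of a stage came from separate collections. The p-values therefore reflect the spread among these arrays alone, part or all of which may be technical, and precision is limited by having 4 arrays per stage.

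Histone-modifying enzymes add or remove chemical groups on the histone tails around which DNA is wound. Acetyltransferases and deacetylases set lysine acetylation, which accompanies open chromatin. Lysine methyltransferases and demethylases set marks such as H3K4 methylation at promoters, H3K9 methylation in heterochromatin and H3K27 methylation, which is written by Polycomb repressive complex 2. Arginine methyltransferases modify histones and many other proteins. The full-grown oocyte is transcriptionally silent and carries a store of maternal transcripts, which is degraded while the embryo's own genome is activated, in the mouse mainly at the 2-cell stage.

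Within a stage, any pair of arrays had a correlation of 0.940 to 0.974 over all probe sets. The oocyte, 2-cell and blastocyst arrays carried their markers, and no markers were listed for the 1-cell and 8-cell stages. The summed intensity of 10 oocyte markers was 45443 in oocytes and 233 in blastocysts on average, and that of 8 blastocyst markers was 228 and 15867. Of 8 listed 2-cell markers, the 4 on the array summed to 3272 at the 2-cell stage and 157 to 545 elsewhere, on average. The oocyte markers averaged 43063 in 1-cell embryos, so they hardly separate these from oocytes. Cumulus markers summed to at most 282.9 and sperm markers to at most 226.2 on any array. The oviduct gene Ovgp1 was at 3105.4 on the array of 8-cell replicate 2 against 46.5 to 193.5 on the other 8-cell arrays, and at 219.6 to 764.6 on the 2-cell arrays. Other oviduct or blood markers were not raised with it. On 8-cell replicate 2, Foxj1 read 32.4 against 19.3 to 41.4 on the other 8-cell arrays. Hba-a1 read 55.2 against 39.2 to 70.5, and Ptprc 10 against 15.6 to 34.3. Foxj1 was at 8.8 to 20.9 on the 2-cell arrays and 28.4 to 57.9 on the oocyte arrays. The geometric mean of the hybridization controls, bacterial and phage transcripts added in equal amounts to each sample before hybridization, was 569 on the oocyte arrays, 1178 on the 1-cell, 1012 on the 2-cell, 1478 on the 8-cell and 686 on the blastocyst arrays. The middle probe set of 18S ribosomal RNA stood at 196 in oocytes, 12665 at the 1-cell stage and 535 to 851 on average at the later stages, and the 3′ to 5′ signal ratio of beta-actin was 3.67 to 4.74 up to the 8-cell stage and 1.99 on the blastocyst arrays. Their part in the changes below was not tested.

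Histone-modifying enzymes did not move as 1 block. Kdm5b, Hdac1, Prmt6 and Kat2b rose between the 1-cell and 2-cell stages. Prmt2, Kdm7a and Kdm6a fell at the transition to the 8-cell stage. Prmt7 fell between the oocyte and the 1-cell stage, to values mostly below the intensity filter, and rose again in the blastocyst. Setd4 fell at each of the first 3 transitions. In these bulk samples, a difference in the number of cells that hold a transcript and a difference in its level per cell cannot be told apart.

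Changes are later minus earlier stage on the scale log2(intensity + 12.15), with a moderated standard error, and a probe set is called when the Benjamini-Hochberg adjusted p of limma's moderated test over all 17208 tested probe sets is under 0.05. The constant makes these changes smaller than the ratio of intensities where intensity is low. From the oocyte to the 1-cell stage, 24 of 80 member probe sets were called higher and 9 lower, where 16.0% and 15.3% of all tested probe sets were called. From the 1-cell to the 2-cell stage the counts were 22 higher and 19 lower, against 23.2% and 21.5% of all. From the 2-cell to the 8-cell stage 11 were higher and 25 lower, against 23.2% and 25.2% of all. From the 8-cell stage to the blastocyst 9 were higher and 26 lower, against 19.5% and 25.5% of all. As shares of the 80 members these are 30% and 11.25%, 27.5% and 23.75%, 13.75% and 31.25%, and 11.25% and 32.5%. The members' median changes were 0.26, 0.08, -0.19 and -0.24, beside medians of 0.11, -0.04, 0.06 and -0.21 over all tested probe sets. Some difference between the 5 stages was called by limma's F test in 70 of 80 member probe sets (87.5%), against 82.1% of all.

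**Figure D1:**
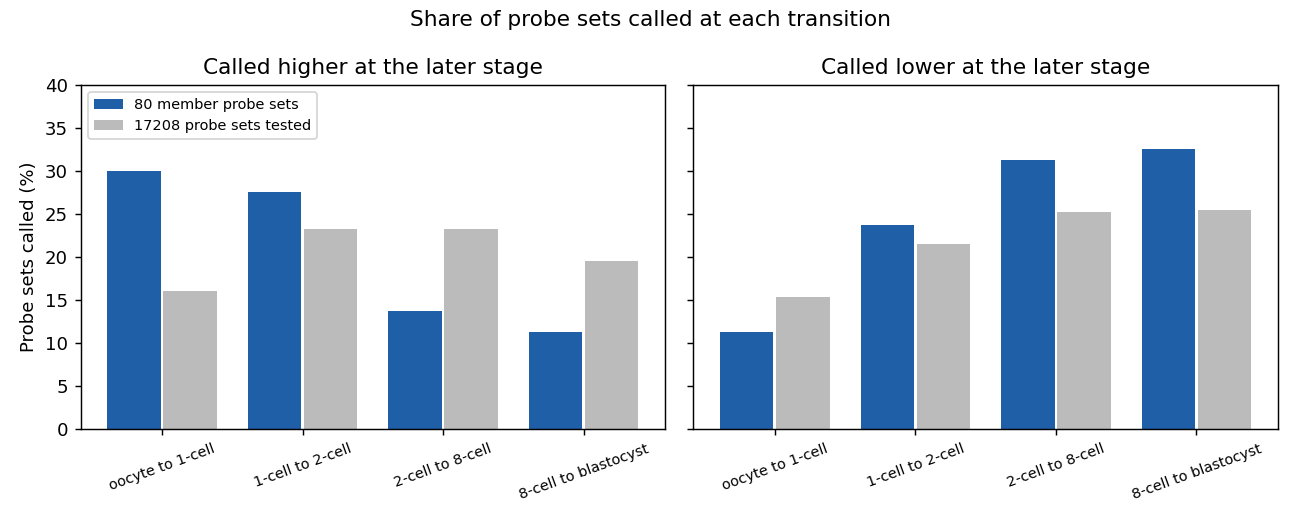
Share of probe sets (%) called higher (left) or lower (right) at each transition, for the 80 tested members (blue) and all 17208 tested probe sets (grey); both axes start at 0. The members stand at 30% against 16.0% for rises between oocyte and 1-cell stage on the deposited scale, of which 0 of 24 remained called higher when arrays were scaled to the hybridization controls.

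These counts depend on how the arrays are scaled, and not equally at each transition. Scaling each array to its hybridization controls moved the median change of all probe sets by -0.83, 0.17, -0.44 and 0.88 at the 4 transitions, and left 0.630%, 65.7%, 21.6% and 95.6% of all calls higher, where the deposited scale had 51.1%, 51.9%, 48.0% and 43.4%. Control scaling divides all intensities of an array by 1 factor, and the added constant damps its effect on dim probe sets. Calls of brighter probe sets in the direction of the shift gain in size from it, so only calls against the shift are put to a test. For dim probe sets that test is weak. Against the shift, 0 of the 24 rises between oocyte and 1-cell stage were still called and 14 turned negative. Of the 19 falls at the 2-cell stage 9 were kept, and of the 11 rises at the 8-cell stage 1, that of Ehmt2. Of the 26 falls into the blastocyst 1 was kept, that of Kdm7a, and 17 turned positive. At the 2-cell stage 19 of the 22 rises were kept, where the shift was small and ran with them.

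With 1 probe set per gene, the one with the highest mean log2 level, the 54 tested genes peaked at all stages. The highest stage mean was that of the oocyte in 6 genes, the 1-cell embryo in 19, the 2-cell embryo in 11, the 8-cell embryo in 9 and the blastocyst in 9. The share with a 1-cell peak was 35.2%, against 25.7% of 10257 genes tested, and the share with a 2-cell peak 20.4% against 14.9%. By gene, 17 were called higher and 7 lower at the 1-cell stage (15.2% and 16.6% of all genes), 16 and 13 at the 2-cell stage (22.0% and 22.7%), 9 and 16 at the 8-cell stage (22.2% and 25.7%) and 8 and 19 in the blastocyst (20% and 26.4%). These shares of all genes are the background for the counts by enzyme class below on the deposited scale. They do not hold for counts under control scaling.

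**Figure D2:**
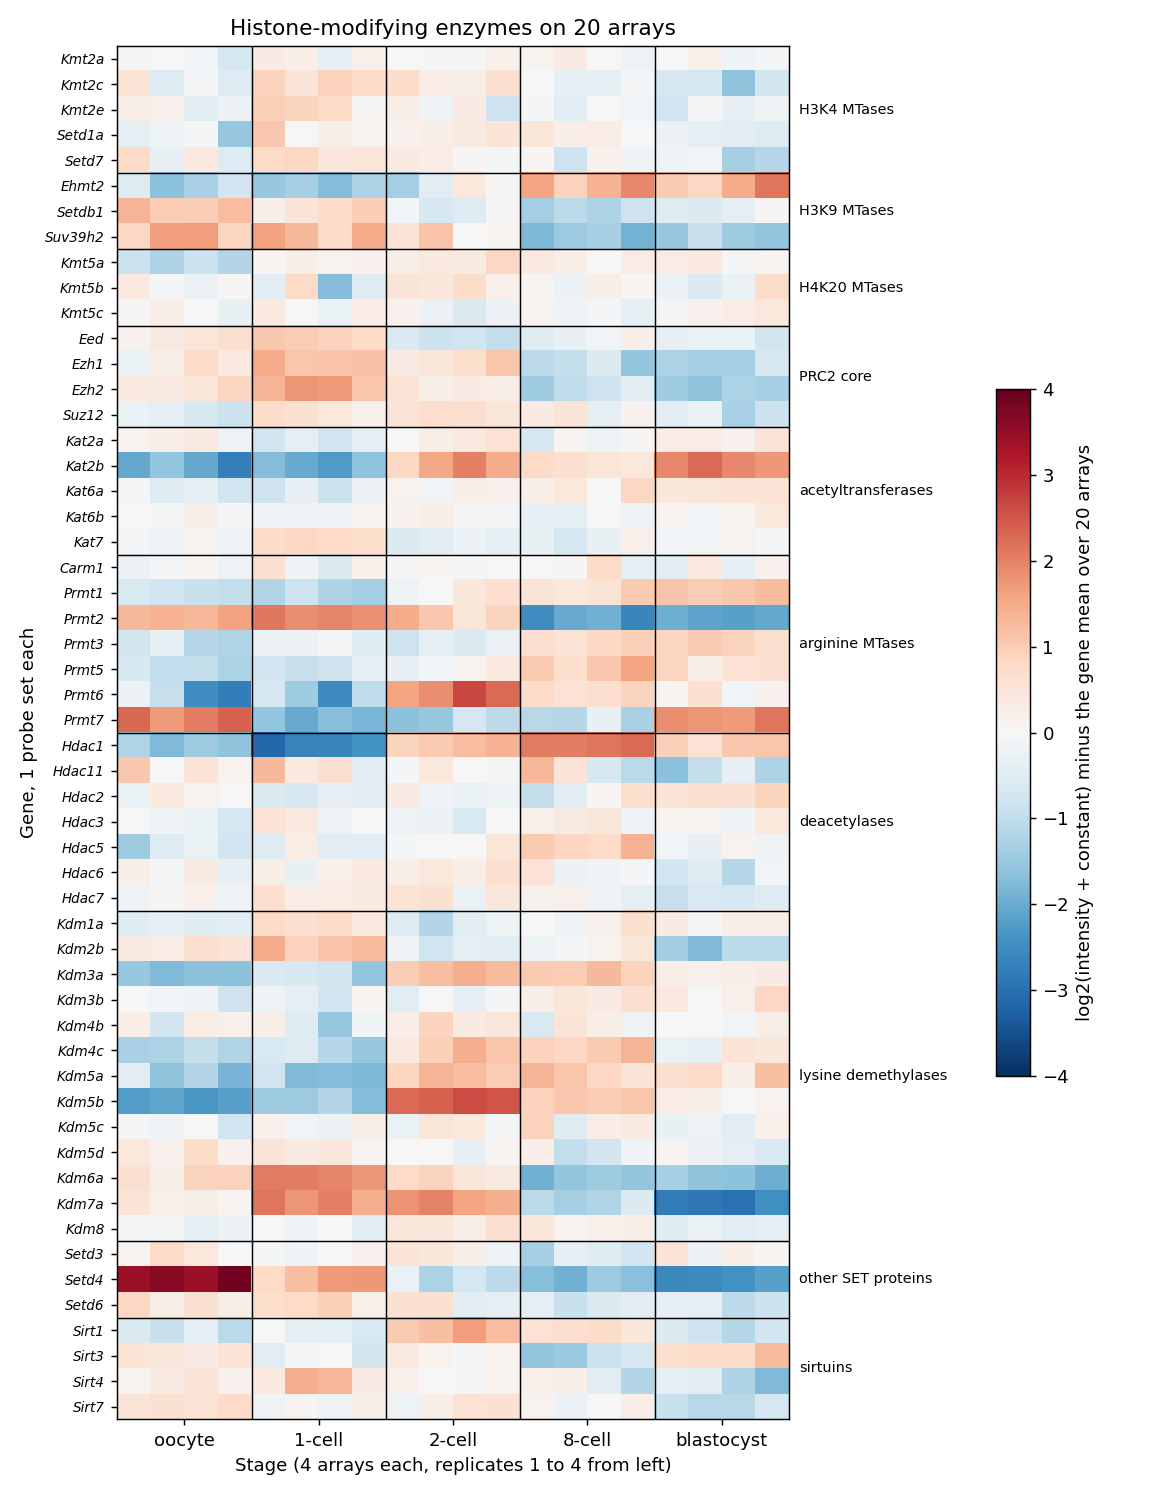
Each row is 1 of the 54 tested genes, grouped by enzyme class, and each column 1 of the 20 arrays; colour gives log2(intensity + 12.15) minus the gene's mean over the 20 arrays. Kdm5b, Hdac1, Prmt6 and Kat2b turn from blue to red between the 1-cell and 2-cell arrays, and Prmt2, Kdm6a and Suv39h2 turn from red to blue between the 2-cell and 8-cell arrays.

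Start sites were looked up for genes that rose at the 2-cell stage and genes with net losses, to show the DNA upstream of transcripts that moved in opposite directions. RefSeq entries on the build GRCm38.p6 matched 49 of the 57 member genes. For 4 genes with a single entry, the 250 bases before the annotated start are given 5′ to 3′ on the gene's strand, in lower case with matches to the searched motifs in capitals. Kdm5b lies at chr1:134559928-134560177 on the plus strand and Prmt6 at chr3:110251000-110251249 on the minus strand, and both rose at the 2-cell stage. Setd4 lies at chr16:93603816-93604065 and Prmt2 at chr10:76237866-76238115, both on the minus strand, and both fell between oocyte and blastocyst.
Kdm5b: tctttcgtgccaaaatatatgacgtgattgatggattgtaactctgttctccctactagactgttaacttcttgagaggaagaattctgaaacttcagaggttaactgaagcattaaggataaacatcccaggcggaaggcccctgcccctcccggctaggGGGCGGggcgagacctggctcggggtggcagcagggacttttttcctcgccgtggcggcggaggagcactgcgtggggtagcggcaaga
Prmt6: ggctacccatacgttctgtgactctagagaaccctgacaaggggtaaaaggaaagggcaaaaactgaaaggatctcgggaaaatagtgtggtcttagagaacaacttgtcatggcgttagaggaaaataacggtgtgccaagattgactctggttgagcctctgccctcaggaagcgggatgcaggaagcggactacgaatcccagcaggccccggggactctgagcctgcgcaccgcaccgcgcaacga
Setd4: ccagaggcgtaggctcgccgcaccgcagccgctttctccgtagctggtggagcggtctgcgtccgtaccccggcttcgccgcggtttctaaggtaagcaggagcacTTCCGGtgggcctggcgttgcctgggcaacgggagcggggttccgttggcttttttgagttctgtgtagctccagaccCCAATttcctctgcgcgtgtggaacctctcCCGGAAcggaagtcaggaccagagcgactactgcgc
Prmt2: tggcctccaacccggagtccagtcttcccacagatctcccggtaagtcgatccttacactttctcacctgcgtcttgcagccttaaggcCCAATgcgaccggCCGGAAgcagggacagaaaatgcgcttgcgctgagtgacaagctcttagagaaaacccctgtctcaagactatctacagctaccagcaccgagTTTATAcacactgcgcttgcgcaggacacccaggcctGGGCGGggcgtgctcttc

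The motifs, searched on both strands, were the sequence CCAAT bound by NF-Y, the sequence GGGCGG known as the GC box, the ETS factor core CCGGAA, the E-box hexamer CACGTG, the paired-like homeobox core written TAATCC, and the TATA box as TATAAA. None of the 6 contains another. The Kdm5b window held 1 GC box and 13 CpG dinucleotides, and the Prmt6 window none of the 6 motifs and 13 CpG. The Setd4 window held 1 NF-Y sequence, 2 ETS cores and 24 CpG. The Prmt2 window held 1 NF-Y sequence, 1 ETS core, 1 TATA box, 1 GC box and 14 CpG. Over 67 windows of member genes, the NF-Y sequence was present in 40.3%, the GC box in 59.7%, the ETS core in 22.4%, the E-box in 10.4%, the homeobox core in 7.46% and the TATA box in 4.48%. Over all 32851 windows of the same length the shares were 33.8%, 32.7%, 12%, 6.02%, 6.25% and 12.4%, and the median number of CpG was 6 against 17 in the members' windows. The windows were not matched for CpG number, and the 67 come from 49 genes, some of them counted more than once. A match of these letters is a description of the window and not a bound site.

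Among the 7 tested deacetylases of classes I, II and IV, Hdac1 alone was called at all 4 transitions. Hdac1, a class I enzyme of the NuRD, Sin3 and CoREST corepressor complexes, had intensities of 152.8, 100.7, 128.9 and 112.7 on the oocyte arrays and 31.0, 47.1, 50.7 and 60.5 on the 1-cell arrays. It then reached 697.5, 773.4, 892.2 and 978.6 on the 2-cell arrays and 1598.1, 1564.8, 1652.5 and 1825.4 on the 8-cell arrays, and stood at 717.5, 557.4, 797.9 and 814.5 on the blastocyst arrays. No array of one stage overlapped with those of the stage before it, so that every 1-cell array lay below all oocyte arrays and every 2-cell array far above both. Hdac1 fell by 1.20 ± 0.18 into the 1-cell stage (SE, n = 4 arrays per stage; limma adjusted p = 5.49e-06) and rose by 3.85 ± 0.18 into the 2-cell stage (adjusted p = 3.89e-16), a 17.7-fold ratio of mean intensities. The further rise of 0.99 ± 0.18 into the 8-cell stage and the fall of -1.20 ± 0.18 into the blastocyst were no longer called under control scaling (0.43 and -0.10).

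Hdac2, its close paralogue, did not share this course. Its means were 274 ± 53.3, 179.9 ± 17.6, 247 ± 53, 252 ± 129 and 413 ± 50.7 from oocyte to blastocyst (SD, n = 4 each), and the change of 0.42 ± 0.24 into the 2-cell stage did not pass (adjusted p = 0.164) although the 4 values of both stages did not overlap. Hdac2 rose by 0.81 ± 0.24 into the blastocyst, a call that was lost without 8-cell replicate 1 (0.54). Hdac5, a class IIa enzyme, rose by 0.91 ± 0.25 into the 8-cell stage, to 118.8, 102.2, 95.7 and 154.3 from 49.0, 50.0, 51.7 and 75.9, and fell by 1.12 ± 0.25 into the blastocyst, and neither call held under control scaling (0.41 and -0.17). Of the class, 5 genes were called lower in the blastocyst on the deposited scale, Hdac1, Hdac5, Hdac6, Hdac7 and Hdac11, against 26.4% of all genes. Under control scaling 0 were called lower, where 95.6% of the 8105 calls over all probe sets were higher. Hdac6 and Hdac7 turned to 0.31 and 0.30 under it. The call of Hdac6 was also lost without 8-cell replicate 1 (-0.50) or blastocyst replicate 3 (-0.51), and that of Hdac11 without any 1 of 8-cell replicates 1 and 2 and blastocyst replicates 1 and 4 (-0.63 without 8-cell replicate 1). Hdac11 was at -0.31 under control scaling, -0.91 under quantile normalization and -0.84 under centring, without a call in each. Hdac6, a mainly cytoplasmic tubulin deacetylase, was at 142 ± 32.6, 149 ± 30.1, 180.2 ± 23.6, 142 ± 43.6 and 84.5 ± 28.7 in order of stage. Hdac3, the deacetylase of the NCoR complexes, was called at no transition and had stage means between 129 and 188.

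The sirtuins are deacetylases that use NAD. Sirt1, the nuclear member, peaked at the 2-cell stage, with 781.9, 885.3, 1212.2 and 888.9 there against 377.8, 287.2, 285.3 and 240.8 on the 1-cell arrays. It stood at 564.3, 606.5, 625.4 and 513.5 on the 8-cell arrays and 251.9, 204.6, 163.6 and 214.9 on the blastocyst arrays. All 2-cell values lay above those of every other stage, and blastocyst and oocyte values overlapped. Sirt1 rose by 1.62 ± 0.18 into the 2-cell stage (adjusted p = 2.54e-08), a 3.16-fold ratio, and fell by 0.68 ± 0.18 into the 8-cell stage, and its change of -1.43 ± 0.18 into the blastocyst was -0.36 without a call under control scaling.

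Sirt3, a mitochondrial sirtuin, was lowest at the 8-cell stage. It stood at 42.5, 35.3, 29.5 and 34.8 on the 2-cell arrays, at 2.1, 3.2, 11.3 and 14.4 on the 8-cell arrays and at 57.0, 59.0, 58.7 and 90.7 on the blastocyst arrays. The 8-cell values lay below those of every other stage but the 1-cell stage, with which they overlapped. Sirt3 fell by 1.30 ± 0.25 and then rose by 2.01 ± 0.25 (adjusted p = 2.27e-07). Its earlier fall into the 1-cell stage (-0.79 ± 0.25) was not called without 1-cell replicate 4 (-0.64). Sirt7, a nucleolar sirtuin, fell by 1.54 ± 0.18 from oocyte to blastocyst, with means of 424 ± 33.5 and 139 ± 22.6. Sirt4, the other mitochondrial sirtuin tested, read 72.3, 164.3, 149.2 and 69.4 on the 1-cell arrays and 62.8, 51.9, 49.6 and 58.4 on the 2-cell arrays. Its fall of -0.81 ± 0.32 was lost under control scaling (-0.61) and without any 1 of 6 arrays (-0.86 to -0.62).

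Among 5 tested acetyltransferases, 3 were called higher at the 2-cell stage and 1 lower, against 22.0% and 22.7% of all genes. The class counts were the same under control scaling, where 65.7% of the 5697 calls over all probe sets were higher. Kat2b (PCAF), an acetyltransferase of SAGA-type coactivator complexes, was at 9.4, 17.2, 9.1 and 1.0 on the oocyte arrays and 14.5, 9.9, 6.3 and 16.8 on the 1-cell arrays, values below the intensity filter of 32.9. It stood at 143.4, 245.3, 341.8 and 233.9 on the 2-cell arrays, 137.9, 126.7, 111.4 and 106.5 on the 8-cell arrays and 324.8, 414.4, 322.4 and 282.6 on the blastocyst arrays. The 3 later stages were separated from both earlier ones on every array, and the blastocyst values lay above all 8-cell values. Kat2b rose by 3.36 ± 0.25 into the 2-cell stage (adjusted p = 6.8e-12), fell by 0.88 ± 0.25 into the 8-cell stage and rose by 1.38 ± 0.25 into the blastocyst, for a net change of 4.07 ± 0.25 from the oocyte (adjusted p = 6.44e-14). Other transcripts may share this probe set.

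Kat2a (GCN5), the paralogue that can take the place of Kat2b in those complexes, had means of 127 ± 22, 73.3 ± 14.1, 143 ± 26.2, 102 ± 25.1 and 145 ± 15.4 in order of stage. It fell by 0.71 ± 0.20 into the 1-cell stage and rose by 0.86 ± 0.20 into the 2-cell stage, with no overlap of values at either step. A second rise into the blastocyst (0.49 ± 0.20) was close to the threshold (adjusted p = 0.0466) and was not called when any 1 of 11 arrays was left out (0.33 to 0.54). Both dimmer probe sets of Kat2a were uncalled at the 1-cell and 2-cell stages, with changes of 0.37 ± 0.47 and 0.30 ± 0.22 at the latter. The first of them had a change of 1.45 ± 0.47 into the 8-cell stage (adjusted p = 0.0126), a call lost under control scaling (0.88) and without 2-cell replicate 3 (1.06), so the course of Kat2a rests on 1 of 3 probe sets. Kat6a (MOZ) rose by 0.68 ± 0.21 into the 2-cell stage, from 54.4 ± 14.8 to 93 ± 11, while Kat6b (MORF) was called at no transition. Kat7 (HBO1) had 2 tested probe sets that were called in opposite directions at the 2-cell stage. The probe set with the higher level fell by 1.16 ± 0.16, from 624.0, 661.1, 654.9 and 608.4 to 248.2, 269.5, 314.0 and 285.7, and the dimmer one had a change of 0.57 ± 0.21 (adjusted p = 0.0282), which was lost without any 1 of 1-cell replicates 1, 2 and 3 and 2-cell replicates 2 and 3 (0.46 to 0.54). It was also not called under control scaling (0.71, adjusted p = 0.0809), quantile normalization (0.45) or centring (0.46), so that the direction for Kat7 depends on the probe set.

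Of the 13 tested lysine demethylases, 6 were called higher and 3 lower at the 2-cell stage, against 22.0% and 22.7% of all genes. Under control scaling the class counts were 5 and 3, where 65.7% of the 5697 calls over all probe sets were higher. Kdm5b, which removes methyl groups from H3K4, was at 72.5, 80.1, 66.1 and 74.7 on the oocyte arrays and 132.0, 132.2, 160.0 and 105.2 on the 1-cell arrays. It stood at 1849.9, 1983.0, 2362.7 and 2236.4 on the 2-cell arrays, 719.0, 813.7, 780.9 and 826.0 on the 8-cell arrays and 461.9, 451.7, 374.6 and 420.5 on the blastocyst arrays. The 5 stages did not overlap with their neighbours, and the 2-cell arrays stood above all others. Kdm5b rose by 3.88 ± 0.15 into the 2-cell stage (adjusted p = 9.07e-18), a 15.9-fold ratio, then fell by 1.41 ± 0.15 into the 8-cell stage (adjusted p = 7.53e-09). A second, dimmer probe set of the gene rose by 2.47 ± 0.23 into the 2-cell stage but had an uncalled change of 0.34 ± 0.23 into the 8-cell stage (adjusted p = 0.241), so the fall rests on 1 of 2 probe sets. The smaller changes of the first probe set into the 1-cell stage (0.75 ± 0.15) and into the blastocyst (-0.86 ± 0.15) turned to -0.18 and 0.22 under control scaling.

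Kdm5a, the paralogue with the same substrate, was at 22.2, 3.3, 8.7 and 0.9 on the oocyte arrays and 15.2, 1.7, 1.9 and 1.5 on the 1-cell arrays. It stood at 73.8, 109.0, 99.0 and 83.9 on the 2-cell arrays, 108.3, 89.6, 71.7 and 54.6 on the 8-cell arrays and 61.9, 67.6, 43.3 and 95.7 on the blastocyst arrays. No array of the first 2 stages reached the level of any later array. Kdm5a rose by 2.64 ± 0.30 into the 2-cell stage (adjusted p = 2.31e-08) and was called at no later transition. Kdm5c was called at no transition and had stage means between 24.1 and 42.4. Kdm5d is encoded on the Y chromosome, which oocytes do not carry. Its 1 tested probe set, whose name allows shared transcripts, read 45.7, 36.3, 59.8 and 35.8 on the oocyte arrays and was called lower in blastocysts than in oocytes, so values of this size were read in cells without the gene.

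Kdm3a and Kdm4c, demethylases of H3K9, also rose at the 2-cell stage. Kdm3a was at 64.0, 51.7, 57.2 and 57.8 on the oocyte arrays, 133.3, 126.6, 118.0 and 61.8 on the 1-cell arrays and 424.0, 488.0, 583.1 and 508.2 on the 2-cell arrays, and rose by 2.11 ± 0.19 there (adjusted p = 2.17e-10). Its 8-cell mean of 448 ± 50.9 was not distinguishable from the 2-cell mean (adjusted p = 0.521). Kdm4c, which acts on trimethylated H3K9, was at 16.1, 18.3, 7.3 and 3.1 on the 1-cell arrays and 44.9, 71.6, 107.8 and 80.9 on the 2-cell arrays, with no overlap, and rose by 1.93 ± 0.28 (adjusted p = 1.36e-06). Kdm4b and Kdm8 had smaller called changes of 0.98 ± 0.32 and 0.61 ± 0.20 at this step, the first lost without 1-cell replicate 3 (0.64) or 2-cell replicate 2 (0.84) and the second without 1-cell replicate 4 (0.52) or 2-cell replicate 4 (0.54) and under control scaling (0.76). Kdm3b, the paralogue of Kdm3a, was not called at the 2-cell stage and had means of 135 ± 33.8, 129 ± 34, 139 ± 21.7, 222 ± 30.3 and 217 ± 58.3.

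Kdm6a and Kdm7a fell at the 8-cell stage. Kdm6a (UTX), an H3K27 demethylase encoded on the X chromosome, was at 739.3, 551.4, 872.2 and 887.1 on the oocyte arrays and 1998.6, 1956.9, 1841.3 and 1630.5 on the 1-cell arrays. It stood at 814.1, 876.0, 652.1 and 608.2 on the 2-cell arrays, 114.5, 149.7, 166.1 and 147.4 on the 8-cell arrays and 179.2, 144.8, 141.4 and 112.8 on the blastocyst arrays. All 1-cell values lay above those of every other stage, and all 8-cell and blastocyst values lay below every earlier value. Kdm6a fell by 1.33 ± 0.18 into the 2-cell stage and fell by 2.25 ± 0.18 into the 8-cell stage (adjusted p = 2.62e-11), a 5.11-fold loss of mean intensity at the second step. Its other probe set fell by 1.55 ± 0.18 at that step. Kdm7a, a demethylase of H3K9 and H3K27, was at 589.8, 663.3, 500.2 and 446.0 on the 2-cell arrays, 69.8, 56.2, 61.8 and 105.3 on the 8-cell arrays and 12.7, 11.3, 9.7 and 19.4 on the blastocyst arrays, and the 3 stages did not overlap. It fell by 2.73 ± 0.20 and then fell by 1.73 ± 0.20. The second fall ran against the shift of control scaling and was still called under it (-0.93). The earlier increases into the 1-cell stage, 1.29 ± 0.18 for Kdm6a and 1.58 ± 0.20 for Kdm7a, were not called under that scaling (0.26 and 0.58).

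Kdm1a (LSD1), which removes mono- and dimethylation from H3K4, and Kdm2b, which binds CpG islands and recruits Polycomb repressive complex 1, shared a 1-cell peak. Kdm1a was at 217.6, 237.9, 216.8 and 222.2 on the oocyte arrays, 534.4, 499.9, 525.1 and 406.4 on the 1-cell arrays and 210.2, 130.7, 223.3 and 264.3 on the 2-cell arrays. Kdm2b had means of 1109.6 ± 127, 1900.0 ± 319, 601 ± 109, 881 ± 183 and 319.5 ± 71.2 in order of stage. Kdm1a fell by 1.23 ± 0.19 and Kdm2b fell by 1.64 ± 0.18 into the 2-cell stage (adjusted p = 4.88e-06 and 2.04e-08), and both falls held under control scaling. The rises into the 1-cell stage did not, at 0.09 for Kdm1a and -0.27 for Kdm2b, against 1.09 ± 0.19 and 0.76 ± 0.18 on the deposited scale. Across the class, 6 genes were called higher and 0 lower at the 1-cell stage on the deposited scale, against 0 and 4 under control scaling, and 0 higher and 6 lower in the blastocyst against 4 and 1. Of all genes, 15.2% and 16.6% were called at the 1-cell stage and 20% and 26.4% in the blastocyst, on the deposited scale. Under control scaling 0.630% and 95.6% of the calls over all probe sets at these 2 transitions were higher.

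Of the 5 tested genes grouped with the H3K4 methyltransferases, 1 was called lower at the 2-cell stage, Kmt2e, and 1 at the 8-cell stage, Kmt2c. The call of Kmt2e at the 2-cell stage was lost under control scaling (-0.56). Being in this group does not show that a gene, Kmt2e among them, has this activity, which was not measured. Of the 5, 3 were called higher at the 1-cell stage, Kmt2c, Kmt2e and Setd1a, against 15.2% of all genes. All 3 turned negative under control scaling (-0.10, -0.22 and -0.05). The call of Kmt2e was also lost without any 1 of 5 arrays (0.60 to 0.69). Setd1a, the catalytic subunit of a COMPASS complex, had means of 97.1 ± 39.4, 188 ± 75.9, 177 ± 21.7, 167 ± 24.8 and 101 ± 9.09 in order of stage, and its other tested probe set was not called at the 1-cell stage (0.27 ± 0.29). Kmt2c (MLL3), which marks enhancers, fell by 0.68 ± 0.22 into the 8-cell stage, from 679.1, 503.1, 481.8 and 641.3 to 400.2, 313.0, 308.0 and 393.6, with no overlap. Kmt2a (MLL1) was called at no transition, with stage means between 80.9 and 103. Setd7, an H3K4 monomethyltransferase, was called lower only over the whole span, at means of 30.3 ± 18.2, 46.2 ± 8.15, 29.8 ± 5.91, 22.2 ± 9.62 and 12.6 ± 10.3 in order of stage.

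Of the 3 tested H3K9 methyltransferases, 1 was called higher and 2 lower at the 8-cell stage, against 22.2% and 25.7% of all genes. Ehmt2 (G9a), which writes mono- and dimethylation of H3K9, was at 24.4, 4.7, 9.3 and 18.9 on the oocyte arrays, 6.1, 8.8, 3.6 and 10.3 on the 1-cell arrays and 8.3, 26.4, 58.8 and 42.5 on the 2-cell arrays. It stood at 144.9, 88.2, 126.2 and 188.4 on the 8-cell arrays and 96.2, 80.8, 134.4 and 217.6 on the blastocyst arrays. The 8-cell arrays all lay above the earlier ones, while the 2-cell and 1-cell arrays overlapped. Ehmt2 rose by 1.12 ± 0.34 into the 2-cell stage and by 1.79 ± 0.34 into the 8-cell stage (adjusted p = 0.00719 and 6.21e-05). The second rise ran against the shift of control scaling and was still called under it (1.31). All its oocyte and 1-cell values lay below the intensity filter. A second probe set of Ehmt2 was not tested and read at most 4.1 on any array.

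Suv39h2, which writes trimethylation of H3K9 in heterochromatin, fell at the step at which Ehmt2 rose. It stood at 173.0, 308.3, 319.0 and 175.9 on the oocyte arrays, 307.0, 241.9, 164.6 and 277.6 on the 1-cell arrays and 140.4, 216.0, 89.4 and 100.9 on the 2-cell arrays. It was at 17.7, 25.4, 28.8 and 15.9 on the 8-cell arrays and 24.4, 42.5, 26.4 and 22.3 on the blastocyst arrays, all below every earlier value. Suv39h2 fell by 2.07 ± 0.26 into the 8-cell stage (adjusted p = 1.71e-07), to values below the intensity filter, and its other probe set fell by 0.86. Setdb1, which silences retroelements together with Trim28, had means of 545 ± 67.7, 379 ± 86.8, 193 ± 46.8, 103 ± 18.6 and 186 ± 39.3 in order of stage. It fell by 0.94 ± 0.20 into the 2-cell stage, which control scaling left uncalled (-0.72), fell by 0.82 into the 8-cell stage and rose by 0.78 ± 0.20 into the blastocyst. A second, dimmer probe set of Setdb1 was called in the opposite direction in the blastocyst (-1.13 ± 0.36, adjusted p = 0.0133), a call lost without 8-cell replicate 1 (-0.83) or 8-cell replicate 2 (-0.84) and under control scaling (-0.45), so its last change depends on the probe set. That probe set was not called at the 3 earlier transitions.

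Of the H4K20 methyltransferases, Kmt5a, which writes monomethylation, was at 201.4, 155.2, 204.8 and 160.3 on the oocyte arrays and 401.3, 445.1, 420.7 and 426.5 on the 1-cell arrays, with no overlap. Its change was 1.19 ± 0.16 (adjusted p = 1.62e-06), and 0.20 without a call under control scaling. Later means lay between 438 and 529 and no later change of this probe set was called. Its dimmer probe set was not called at the 1-cell stage (0.36 ± 0.19, adjusted p = 0.157). At the 2-cell stage that probe set had a change of 0.48 ± 0.19 (adjusted p = 0.0431), a call lost under control scaling (0.65), under quantile normalization and centring (0.37 in both), with the replicate number as a block and without any 1 of 8 arrays (0.33 to 0.50). The net change from oocyte to blastocyst was 1.22 ± 0.16, and 0.97 and still called under control scaling (adjusted p = 0.004). Kmt5b was called higher at the 2-cell stage on 3 of its 4 tested probe sets. The representative one lost its call without 1-cell replicate 3 (0.53) or 2-cell replicate 3 (0.86). The largest change was that of another probe set, from 37.9, 24.0, 37.7 and 63.4 to 183.6, 186.9, 135.9 and 215.7 (1.90 ± 0.25, adjusted p = 3.28e-07). Kmt5c was called at no transition.

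Among the 4 core genes of Polycomb repressive complex 2, the H3K27 methyltransferase, Ezh2, Ezh1 and Eed had their highest mean in 1-cell embryos and Suz12 in 2-cell embryos. At the 2-cell stage 0 were called higher and 3 lower on the deposited scale, against 22.0% and 22.7% of all genes. Under control scaling the counts of the 4 were 0 and 2, where 65.7% of the 5697 calls over all probe sets were higher. Ezh2, the catalytic subunit of proliferating cells, was at 2867.0, 2767.9, 3031.3 and 3918.3 on the oocyte arrays and 5552.0, 7444.1, 7021.6 and 4678.3 on the 1-cell arrays. It stood at 3155.5, 2573.0, 2703.8 and 2583.7 on the 2-cell arrays, 804.4, 1061.7, 1221.0 and 1626.8 on the 8-cell arrays and 797.0, 698.2, 893.7 and 851.0 on the blastocyst arrays. All 1-cell arrays stood above all others, and all 8-cell and blastocyst arrays below all earlier ones. Ezh2 fell by 1.14 ± 0.19 into the 2-cell stage and fell by 1.26 ± 0.19 into the 8-cell stage (adjusted p = 8.56e-06 and 1.97e-06). From the oocyte to the blastocyst it fell by 1.93 ± 0.19, a 3.88-fold loss.

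Ezh1, the paralogue with weaker methyltransferase activity, had means of 185 ± 55.2, 361 ± 47.2, 242 ± 60.9, 67.8 ± 22.2 and 61 ± 19.5 in order of stage. It fell by 1.68 ± 0.23 into the 8-cell stage (adjusted p = 7.96e-07), while its smaller fall into the 2-cell stage (-0.58 ± 0.23, adjusted p = 0.0463) was lost when any 1 of 12 arrays was left out (-0.61 to -0.47) and under control scaling (-0.37). The other tested probe set of Ezh1 had a change of -0.11 ± 0.23 into the 8-cell stage (adjusted p = 0.722) and was not called at the 1-cell or 2-cell stage, so these changes rest on 1 of 2 probe sets. Eed, the subunit that binds methylated H3K27, was at 3712.6, 3581.1, 3368.9 and 3084.5 on the 1-cell arrays, 1190.4, 965.1, 1018.4 and 888.8 on the 2-cell arrays and 1263.0, 1437.4, 1637.7 and 2115.6 on the 8-cell arrays, with no overlap between neighbours. Eed fell by 1.75 ± 0.16 into the 2-cell stage (adjusted p = 6.63e-10). Its increase of 0.64 ± 0.16 into the 8-cell stage was 0.08 without a call under control scaling. A far dimmer probe set of Eed had a change of 0.07 ± 0.24 into the 2-cell stage (adjusted p = 0.857) and was called at none of the first 3 transitions, so the fall rests on 1 of 2 probe sets.

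Suz12, the scaffold subunit, was not called at the 2-cell stage. Its most abundant probe set was at 4216.9, 3911.7, 3430.6 and 2900.6 on the 1-cell arrays, 3672.3, 4185.2, 3954.8 and 3589.6 on the 2-cell arrays and 3213.2, 3637.2, 1993.5 and 2893.4 on the 8-cell arrays, and these values overlapped. Of its 6 tested probe sets, 2 were called lower at the 8-cell stage (-1.36 ± 0.19 and -1.68 ± 0.30) and 4 were not called, so the call for Suz12 depends on the probe set. The increases of Suz12, Ezh2, Ezh1 and Eed into the 1-cell stage, 4 of 4 genes called at 1.02 ± 0.20, 0.96 ± 0.19, 0.95 ± 0.23 and 0.54 ± 0.16, all became -0.0085, -0.07, -0.03 and -0.49 under control scaling, none of them called. That of Eed was also lost under quantile normalization (0.31), under centring (0.48) and without oocyte replicate 1 (0.46).

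Setd4, a SET-domain protein, had the largest net loss of all members. It stood at 4522.9, 5162.9, 4448.5 and 5989.1 on the oocyte arrays and 707.7, 953.5, 1334.3 and 1362.6 on the 1-cell arrays. It was at 337.1, 163.2, 242.3 and 187.8 on the 2-cell arrays, 115.3, 98.6, 141.7 and 117.8 on the 8-cell arrays and 58.2, 59.4, 65.2 and 79.8 on the blastocyst arrays. No 2 stages overlapped, and the values stepped down at each transition. Setd4 fell by 2.23 ± 0.21 into the 1-cell stage and fell by 2.17 ± 0.21 into the 2-cell stage (adjusted p = 2.56e-09 and 1.26e-09), and fell by 6.02 ± 0.21 from oocyte to blastocyst, a 76.6-fold loss of mean intensity. The last step, -0.74 ± 0.21 into the blastocyst, was not called under centring (-0.52) and turned to 0.22 under control scaling. Its other tested probe sets fell by 5.83 and 2.26 from oocyte to blastocyst. Setd3, an actin histidine methyltransferase, fell by 0.99 ± 0.22 into the 8-cell stage and rose by 0.88 ± 0.22 into the blastocyst, with 8-cell values of 73.3, 161.9, 141.2 and 115.0 below all 2-cell and blastocyst values. Setd6, which methylates the NF-kappa-B subunit RELA, had means of 348 ± 74.6, 400.0 ± 82.1, 279 ± 116, 161 ± 25.9 and 153 ± 38 in order of stage and fell by 1.13 ± 0.24 from oocyte to blastocyst.

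Of the 7 tested arginine methyltransferases, 3 were called higher and 1 lower at the 2-cell stage, where 22.0% and 22.7% of all genes were called. Under control scaling the class counts were 3 and 0, where 65.7% of the 5697 calls over all probe sets were higher. Prmt7, which deposits monomethyl arginine, was at 315.0, 205.6, 263.8 and 328.7 on the oocyte arrays and 10.4, 4.3, 8.2 and 6.5 on the 1-cell arrays. It stood at 9.1, 10.9, 29.5 and 20.2 on the 2-cell arrays, 18.8, 17.8, 41.8 and 14.7 on the 8-cell arrays and 231.0, 214.6, 203.2 and 278.9 on the blastocyst arrays. Oocyte and blastocyst arrays overlapped with each other and with no array of the 3 stages between them. Prmt7 fell by 3.88 ± 0.25 (adjusted p = 1.66e-12), and rose by 2.83 ± 0.25 into the blastocyst (adjusted p = 6.92e-10). Most values of the 3 stages between lay below the intensity filter, so the size of both changes is not fixed by these arrays. The net difference between blastocyst and oocyte was not called (-0.24 ± 0.25, adjusted p = 0.426). Its second probe set was not tested and read at most 24.1 on any array.

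Prmt2, a further arginine methyltransferase, fell at the 8-cell stage. Its representative probe set, which other transcripts may share, was at 968.7, 1023.8, 994.5 and 1206.4 on the oocyte arrays, 1708.9, 1425.4, 1523.6 and 1395.2 on the 1-cell arrays and 1087.8, 829.2, 542.6 and 725.4 on the 2-cell arrays. It stood at 58.2, 85.5, 92.2 and 52.8 on the 8-cell arrays and 91.3, 80.4, 75.3 and 84.4 on the blastocyst arrays. Every 8-cell and blastocyst value lay below every earlier one. Prmt2 fell by 3.25 ± 0.19 into the 8-cell stage (adjusted p = 4.54e-14), an 11-fold loss, and its unshared probe set fell by 3.06 ± 0.20.

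Prmt6, which methylates arginine 2 of histone H3, was highest at the 2-cell stage. It stood at 75.5, 42.7, 6.3 and 2.9 on the oocyte arrays and 52.0, 26.1, 5.4 and 39.3 on the 1-cell arrays, values that differed widely between arrays of 1 stage. It was at 297.7, 363.2, 645.9 and 484.0 on the 2-cell arrays, 165.0, 141.5, 151.0 and 177.5 on the 8-cell arrays and 96.5, 148.8, 83.8 and 105.3 on the blastocyst arrays. All 2-cell values lay above those of every other stage. Prmt6 rose by 3.52 ± 0.41 into the 2-cell stage (adjusted p = 3.86e-08) from a 1-cell mean below the intensity filter, and fell by 1.37 ± 0.41 into the 8-cell stage.

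Prmt1, the main source of asymmetric dimethylarginine, was at 138.8, 183.6, 133.2 and 121.0 on the 1-cell arrays and 288.1, 336.4, 463.2 and 532.4 on the 2-cell arrays, and reached 752.9, 661.8, 719.4 and 810.1 on the blastocyst arrays. It rose by 1.39 ± 0.19 into the 2-cell stage (adjusted p = 5.04e-07) with no overlap, and had gained 1.94 ± 0.19 from oocyte to blastocyst. Prmt5, the main source of symmetric dimethylarginine, rose by 0.73 ± 0.20 into the 2-cell stage, from 134 ± 27.3 to 232 ± 52.6. Its change into the 8-cell stage was 1.08 ± 0.20, and 0.53 without a call under control scaling. Prmt3, a cytosolic enzyme that methylates a ribosomal protein, changed by 1.23 ± 0.19 into the 8-cell stage, from 144.7, 204.5, 178.8 and 223.3 to 423.3, 393.9, 477.9 and 522.4, which control scaling also left uncalled (0.68), and its far dimmer probe set was not called at that step (-0.22 ± 0.31). Net changes from oocyte to blastocyst were 1.74 ± 0.19 for Prmt3 and 1.54 ± 0.20 for Prmt5, and both held under that scaling. Carm1, a coactivator that methylates arginines of histone H3, was called at no transition, with values of 54.6 to 155.4 over all 20 arrays and adjusted p-values of 0.609 to 0.948.

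**Figure D3:**
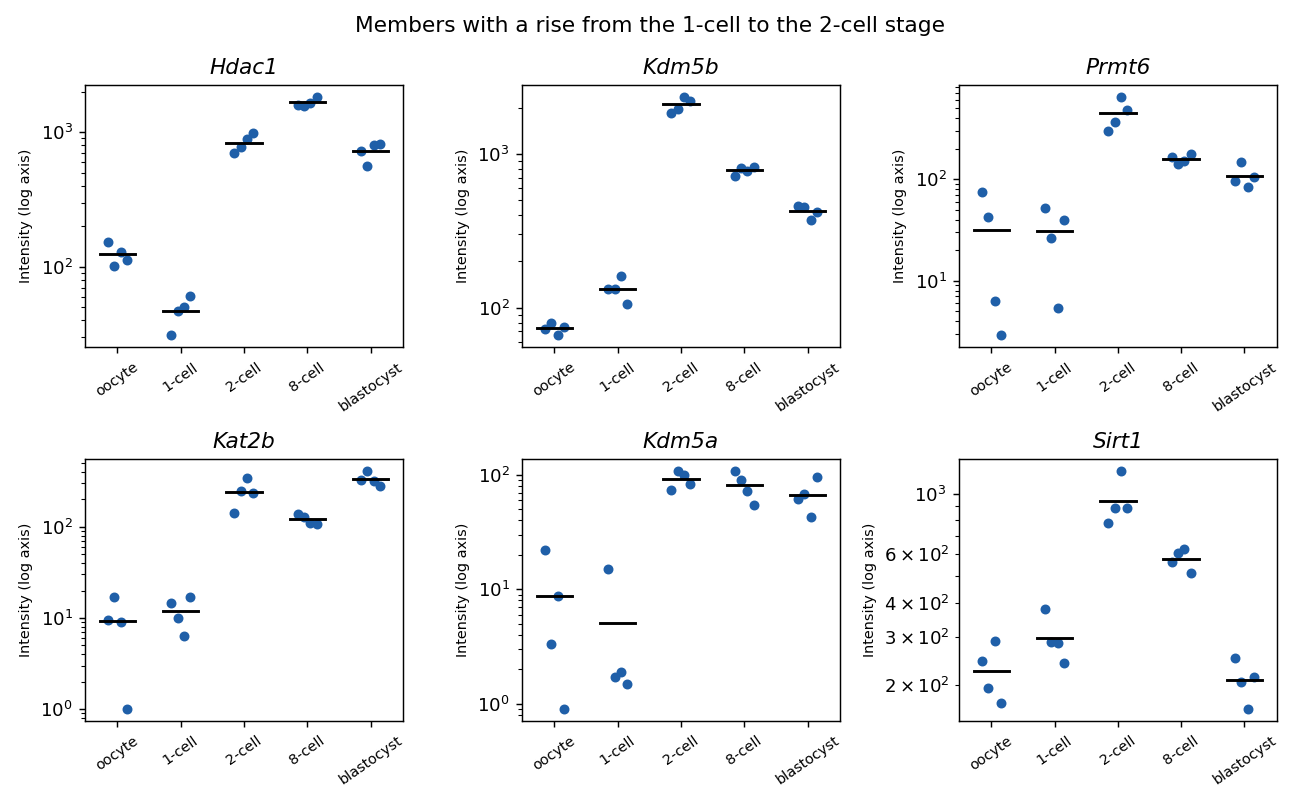
Intensity on a log axis for 6 members that rose between the 1-cell and 2-cell stages; points are the 4 arrays of each stage and bars their means. All 2-cell points lie above all 1-cell points in each panel; Hdac1 and Kat2b later reach their highest means at the 8-cell stage and in the blastocyst.

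**Figure D4:**
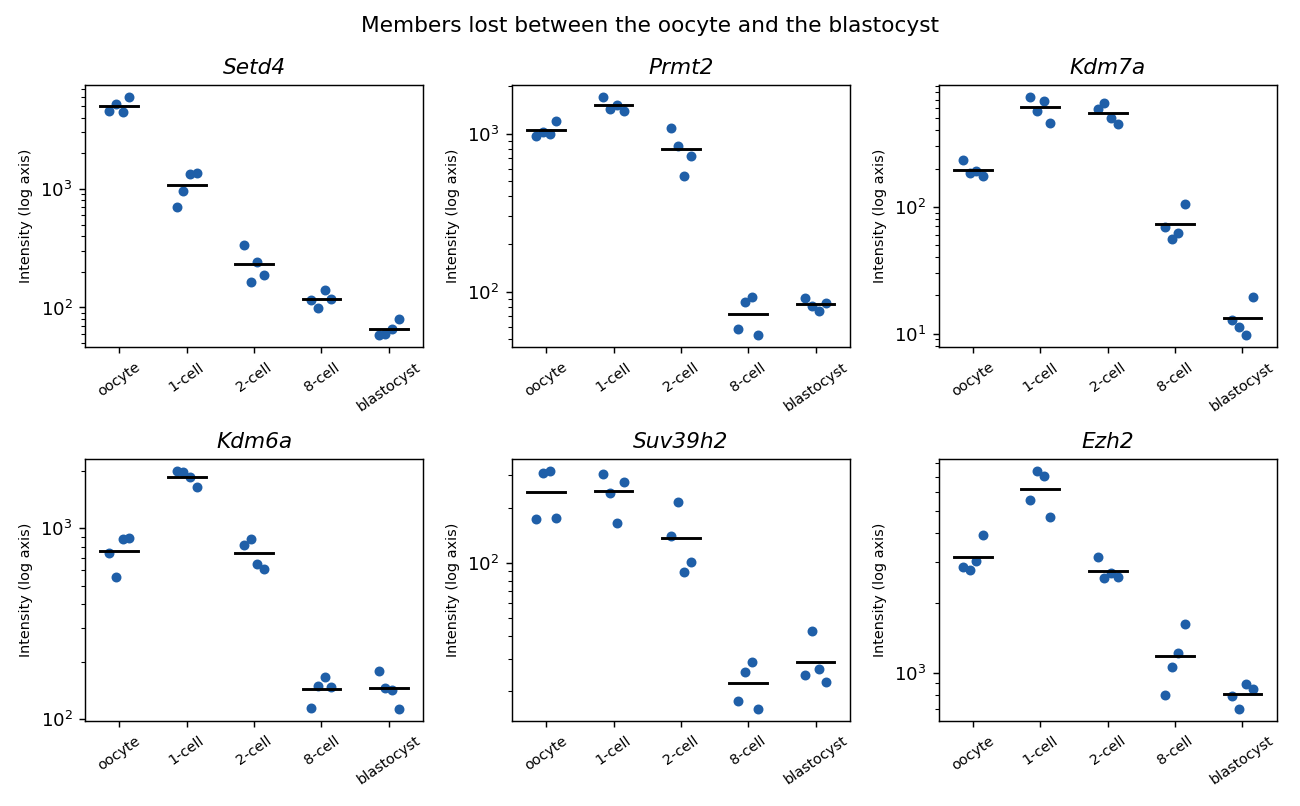
Intensity on a log axis for 6 members with lower levels in the blastocyst than in the oocyte; points are the 4 arrays of each stage and bars their means. Setd4 steps down from the 1-cell stage on, and in the other 5 genes every 8-cell point lies below every 2-cell point.

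From oocyte to blastocyst, 23 of 80 member probe sets were called higher (28.5% of all tested) and 29 lower (30.7%). Control scaling, whose shift over this span was -0.25, kept 15 of the 23 rises. By gene the counts were 17 and 19 of 54, against 26.2% and 33.6% of all genes, and net losses included those of Setd4, Prmt2 (-3.48 ± 0.19), Kdm7a (-3.03 ± 0.20), Suv39h2 (-2.61 ± 0.26), Kdm6a (-2.30 ± 0.18) and Ezh2. Net gains included those of Kat2b, Hdac1 (2.43 ± 0.18), Ehmt2 (2.42 ± 0.34), Kdm5b (2.36 ± 0.15), Kdm5a (1.98 ± 0.30) and Prmt1. These 6 gains ran against that shift and were still called, those of Hdac1, Kdm5b and Prmt1 at 2.20, 2.15 and 1.69. The gains of Kat2b, Ehmt2 and Kdm5a, all dim in oocytes, were hardly moved by control scaling (4.14, 2.42 and 2.02). It therefore put these last gains to little test. Arginine methyltransferases had 4 of 7 called higher and 1 lower over this span, on both scales, and the core of Polycomb repressive complex 2 had 0 of 4 higher and 3 lower. Sirtuins had 0 of 4 higher and 2 lower, and demethylases 6 of 13 higher and 4 lower (4 and 4 under control scaling). Over all probe sets, 48.1% of the calls over this span were higher on the deposited scale and 38.3% under control scaling.

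Related enzymes were also set against each other within each array, a difference that array scaling cannot change by more than the added constant allows. Such a difference shows unequal change on the log2(intensity + 12.15) scale and not the level of 1 gene against another. Of 19 pairs listed, 8 had both genes tested, which gave 32 two-sided exact permutation tests over 4 transitions. With 4 arrays against 4 the smallest possible p is 0.0286, reached by 10 tests, and their adjusted p was 0.0914, so 0 of 32 passed after adjustment. That count says little, since a pass would need most of the 32 tests to reach the smallest p. The values of both stages did not overlap in those 10. Hdac1 minus Hdac2 was -1.71 ± 0.29 on the 1-cell arrays and 1.72 ± 0.47 on the 2-cell arrays (log2, SD, n = 4), a shift of 3.43, and shifted by -2.01 into the blastocyst. Kat2a minus Kat2b went from 1.84 ± 0.30 to -0.66 ± 0.37 on the 2-cell arrays, a shift of -2.50. Kdm3a minus Kdm3b shifted by 1.99 there, and back by -0.79 and -0.77 at both later steps. Kdm5a minus Kdm5b shifted by -1.24 on the 2-cell arrays and by 1.23 on the 8-cell arrays. The 1-cell values of Kdm5a and Kat2b lay below the intensity filter, where the added constant makes a change smaller than the ratio of intensities. The shift of -1.24 therefore does not show that Kdm5a rose by a smaller ratio than Kdm5b. Carm1 minus Prmt1 shifted by -1.42 on the 2-cell arrays. Ezh1 minus Ezh2 stayed between -4.03 and -3.47 on average, and its stages overlapped at every step (p = 0.143 to 0.971 by exact permutation).

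**Figure D5:**
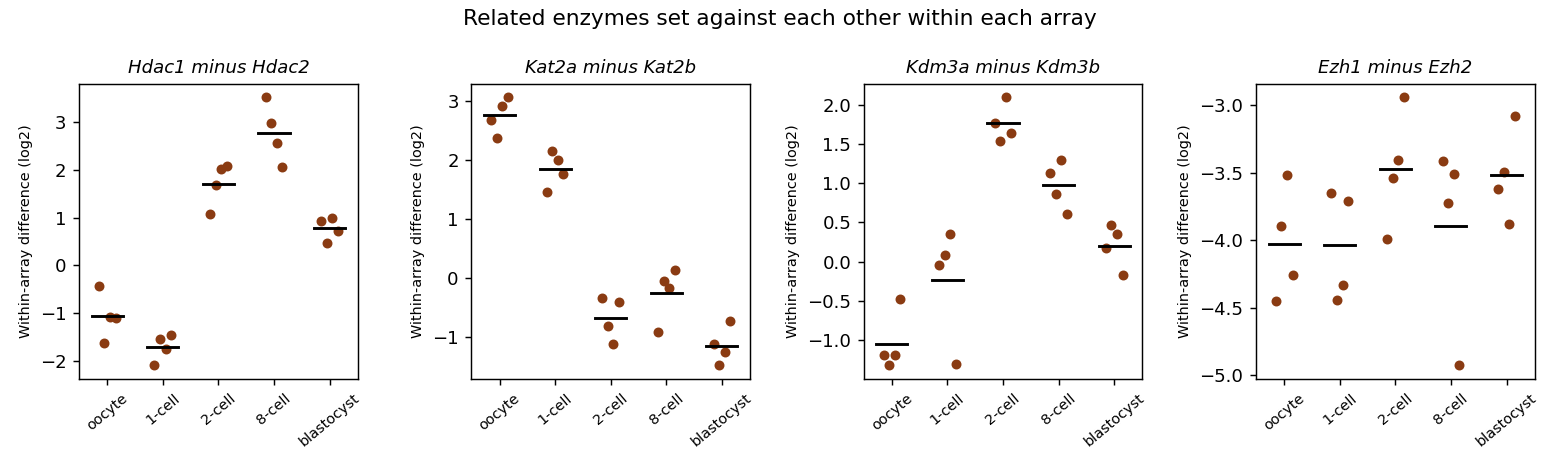
Within-array log2 difference between related enzymes for the 4 arrays of each stage (points) with their mean (bar). The position against 0 has no meaning, since probe sets differ in brightness, and only shifts between stages can be read. All 2-cell points lie above all 1-cell points for Hdac1 minus Hdac2 and below them for Kat2a minus Kat2b, and Ezh1 minus Ezh2 overlaps between all neighbouring stages.

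Genes of the same complexes and pathways that are not members were counted from a list of other acetyltransferases, methyltransferases, readers and complex subunits, of which 50 genes were tested. At the 4 transitions 18, 11, 12 and 10 were called higher and 8, 17, 18 and 16 lower. Of all genes tested, 15.2%, 22.0%, 22.2% and 20% were called higher and 16.6%, 22.7%, 25.7% and 26.4% lower. These counts and shares are on the deposited scale and are not given here under control scaling. Wdr77, the cofactor with which Prmt5 forms its active complex, rose by 5.22 ± 0.24 into the 2-cell stage, from 10.3 ± 8.78 to 789 ± 186 (adjusted p = 3.43e-16), at the step where Prmt5 was also called higher. Mta2, a subunit of the NuRD complex that holds Hdac1, rose by 2.69 ± 0.32 at the same step, and Sap30, of the Sin3 deacetylase complex, fell by 1.54 ± 0.14. Jarid2, an accessory subunit of Polycomb repressive complex 2, fell by 1.56 ± 0.17 into the 2-cell stage and rose by 2.12 ± 0.17 into the 8-cell stage, to 1978 ± 83. Bmi1, of Polycomb repressive complex 1, fell by 3.34 ± 0.19 into the 8-cell stage, from 3949 ± 426 to 381 ± 53.7. Hat1, which acetylates newly made histone H4, rose by 1.82 ± 0.18 at this step. Uhrf1, which reads H3K9 methylation and recruits DNA methyltransferase, fell by 2.96 ± 0.18 into the 8-cell stage and rose by 2.42 ± 0.18 into the blastocyst. Ash2l, a core subunit of the H3K4 methyltransferase complexes, rose by 1.98 ± 0.27 into the blastocyst, where Usp16 and Ing1 had changes of -1.66 ± 0.21 and -1.35 ± 0.19 that control scaling left uncalled (-0.58 and -0.28). At the 1-cell stage Smyd2 fell by 1.21 ± 0.22 and Men1 fell by 0.95 ± 0.23, while the increases of Ing1 (1.30 ± 0.19) and Mtf2 (1.24 ± 0.17) were not called under control scaling (0.28 and 0.21).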

How the data were processed

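Expression was measured on 20 arrays, 4 for each of 5 stages. The deposited values are intensities, 1 per probe set, on a linear scale and never below 0; in the deposited table the mean of each array, with 2% trimmed at each end, was 150.05 to 150.08, so the arrays share a scale. Not given in the sources used here: the array software, its background correction and the genome build. Depth has no counterpart on arrays. Gene names came from the platform annotation: 20380 probe sets have 1 symbol, 691 several and 1555 none, and 64 control probe sets were left out. Probe sets with several symbols named no gene.

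Values were used without further scaling as log2(intensity + 12.15), the constant being the pooled median intensity of 48.6 divided by 4. The test took the 17208 probe sets that exceeded 32.9, the 40th percentile of all values, on 4 or more arrays. Stage means were fitted with limma 3.58.1 in R 4.3.3, with a trended prior, 15 residual degrees of freedom and Benjamini-Hochberg adjustment over all tested probe sets, called at an adjusted p under 0.05. The code was tested on simulated data. Pairs of related enzymes were compared by exact permutation in Python 3.11.15 with scipy 1.17.1 and adjusted with statsmodels 0.14.6. A gene's representative probe set has its highest mean log2 value. Errors of a fitted change are standard errors, and those of a stage mean are SDs over 4 arrays. A fold is the ratio of mean intensities.

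Genes were named by a rule: per transition the 5 largest called rises and falls without overlap, a set of well-known members, listed pairs, 2 rises and 2 falls among partners, and probe sets that oppose their gene's representative. Other members are named to account for their class, after their values were seen. The members and all lists were chosen with earlier results of these data known. Alternatives were 2 other constants, 2 other filters, 3 other scalings, 1 probe set per gene, no probe sets that other transcripts may share, no intensity trend, only the compared stages, the replicate number as a block, and leaving out each array. No 2 arrays held identical values. Same-numbered arrays of different stages showed little tendency to deviate together. The mean correlation of their deviations was 0.0126 over 40 pairs, 6 of them over 0.1. For arrays with other numbers it was -0.0042 over 120 pairs, 11 of them over 0.1. These averages do not settle whether same-numbered arrays were collected or run together.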

Additional observations from a re-analysis of the deposited data

Results flagged for a closer look

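Single arrays stood apart from the other 3 of their stage in 9 of 185 groups of 4 values examined for the 37 genes named by rule, by Dixon's criterion; chance alone gives about 1 in 20 such groups. Ezh1 read 431.6 on 1-cell replicate 1 against 331.5 to 346.1 on the others, and 90.1 on blastocyst replicate 4 against 49.4 to 53.6. Hdac5 read 66 on 1-cell replicate 2 against 32.6 to 35.4, and 75.9 on 2-cell replicate 4 against 49 to 51.7. Kdm1a read 290.5 on blastocyst replicate 2 against 373.5 to 388.9. Kdm5a read 15.2 on 1-cell replicate 1 against 1.5 to 1.9, all far below its later stages. Prmt1 read 700.7 on 8-cell replicate 4 against 446.4 to 480.8. Prmt7 read 41.8 on 8-cell replicate 3 against 14.7 to 18.8, and Sirt3 read 90.7 on blastocyst replicate 4 against 57 to 59. These values belong to 7 genes and 7 arrays, and no array carried more than 2 of them.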

How the results depend on the processing

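Counts of member probe sets called higher or lower were most sensitive to array scaling. Under scaling to the hybridization controls, 0 were higher and 30 lower at the 1-cell stage, 9 lower at the 2-cell stage, 1 higher at the 8-cell stage, 36 higher and 1 lower in the blastocyst, and 15 higher from oocyte to blastocyst. Centring on the array median left 13 lower in the blastocyst, where 63.0% of the 6638 calls over all probe sets were higher. Without probe sets that other transcripts may share, 11 were lower at the 2-cell stage, 14 lower at the 8-cell stage, 3 higher in the blastocyst and 19 lower over the whole span. With 1 probe set per gene, 16 were lower at the 8-cell stage and 19 over the whole span. These last 2 settings test fewer probe sets. The cause of the others was not tested.

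Scaling to the hybridization controls reversed 29 of 168 single changes. At the 1-cell stage these were Eed (-0.49), Ezh1 (-0.032), Ezh2 (-0.075), Kat7 (-0.18), Kdm2b (-0.27), Kdm3a (-0.14), Kdm5b (-0.18), Kmt2c (-0.10), Kmt2e (-0.22), Prmt2 (-0.50), Prmt3 (-0.36), Setd1a (-0.048), Suz12 (-0.0085) and the uncalled dimmer probe sets of Kmt5a (-0.56) and Setd1a (-0.43). At the 8-cell stage they were Kdm2b (-0.015) and the dimmer Kdm5b probe set (-0.17). In the blastocyst they were Ezh2 (0.60), Hdac6 (0.31), Hdac7 (0.30), Kdm3a (0.24), Kdm5b (0.22), Kdm8 (0.17), Kmt2c (0.35), Prmt5 (0.55), Setd1a (0.36), Setd4 (0.22), Sirt7 (0.056) and Suz12 (0.22). The near-zero, uncalled change of the dimmer Eed probe set at the 2-cell stage turned to -0.047 under quantile normalization and -0.043 under centring, and lay between -0.15 and 0.25 when 1 array was left out. No other alternative reversed any of the 168. Centring left 14 and quantile normalization 8 of them uncalled, and control scaling a further 33.

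Leaving out 1 array gave 22 to 24 higher and 8 to 10 lower at the 1-cell stage, 17 to 24 and 15 to 20 at the 2-cell stage, 9 to 13 and 21 to 25 at the 8-cell stage, 6 to 11 and 21 to 27 in the blastocyst, and 21 to 24 and 25 to 29 over the whole span. Any stage difference was then called in 67 to 70. Without 8-cell replicate 2, the array with high Ovgp1, the counts were 12 and 23 at the 8-cell stage and 8 and 25 in the blastocyst. With the replicate number as a block the counts were 24 and 9, 21 and 20, 11 and 24, 9 and 27, and 23 and 29, with a stage difference in 69. Of the 168 single changes the block changed the call of 1, the rise of the dimmer Kmt5a probe set at the 2-cell stage (adjusted p = 0.0516 by limma). The block may be an arbitrary grouping, since the labels do not say what the replicate numbers stand for. Low signal limits the genes with a stage mean below the intensity filter. These are Ehmt2, Kat2b, Kdm4b, Kdm4c, Kdm5a, Hdac5 and Prmt6 in oocytes or at the 1-cell stage, Prmt7 from the 1-cell to the 8-cell stage, Sirt3 at the 1-cell and 8-cell stages, Suv39h2 from the 8-cell stage on, Hdac11, Kdm7a, Kdm8 and Sirt4 in the blastocyst, and Kdm5c, Kdm5d and Setd7 at most stages.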
